A study of Mus musculus with 3 samples.

Results

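The CDK inhibitor genes are the 7 genes of the mouse that encode the classical inhibitors of cyclin-dependent kinases, 3 of the Cip/Kip family (Cdkn1a, Cdkn1b and Cdkn1c) and 4 of the Ink4 family (Cdkn2a, Cdkn2b, Cdkn2c and Cdkn2d). They were chosen by gene name, and all 7 were found among the 23393 gene rows used. RNA had been measured in 3 populations sorted by flow cytometry from the bone marrow of C57BL/6 mice, with 1 library each. All came from the LSK gate (lineage-negative, Sca-1-positive, c-Kit-positive cells), which holds the stem cells and early progenitors. GFP+ HSCs and GFP- HSCs were hematopoietic stem cells, CD48-negative and CD150-positive, with the Map17-GFP reporter on or off. MPPs were multipotent progenitors, CD48-positive and CD150-negative, with the reporter off. The age and sex of the mice and whether animals were pooled were not given in the sources used here. With 1 library per population no value has an error between replicates, so no difference was tested. The value of a gene in a library, its level, is the authors' normalized count.

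Cyclin-dependent kinases drive cells through the division cycle once a cyclin has bound them. Ink4 proteins bind Cdk4 and Cdk6 and keep D-type cyclins away from them, whereas Cip/Kip proteins bind assembled cyclin-CDK complexes, above all those of Cdk2. Active complexes phosphorylate the Rb family and thereby free E2F factors to switch on the genes of S phase. Most adult stem cells of the mouse marrow are quiescent, while multipotent progenitors divide often, and several of these inhibitors are known from knockout mice to act on stem cell quiescence or self-renewal.

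The levels summed to between 25311805 and 26689660 per library after the authors' scaling, and the sequencing depth behind them is unknown. The background was formed by the 11951 genes whose level averaged 50 or more. The genes of the gates went the way of the labels. Slamf1, which encodes CD150, stood at 2219 in GFP+ HSCs and 2144 in GFP- HSCs, against 17 in MPPs, and Cd48 stood at 64 and 168 in those HSC fractions, against 7744 in MPPs. Pdzk1ip1, the gene of Map17 and named after its values were seen, stood at 5659 in GFP+ HSCs, 3673 in GFP- HSCs and 290 in MPPs. It was thus only 1.54-fold higher in GFP+ than in GFP- HSCs. In GFP- HSCs it was 12.7-fold higher than in MPPs, although the reporter was off in both. Markers of other cells differed too. All 5 monocyte markers were above 0 in every library and summed to 343 in GFP+ HSCs, 290 in GFP- HSCs and 6316 in MPPs, and the 5 megakaryocyte markers to 5327, 9324 and 1813 in the same order. Most of each megakaryocyte sum was Itga2b, at 4095, 7032 and 1263. Gp9 was nearer level between the HSC fractions, at 689 and 783. Ppbp alone of the 5 was highest in MPPs, at 83, 70 and 227. The 5 neutrophil markers found, of 6, summed to 1412, 702 and 621, and the 5 B cell markers to 896, 765 and 1298. Most of each B cell sum was Cd79b, at 870, 749 and 1109, and Ms4a1 and Pax5 were at 0 in both HSC libraries. The 6 T and NK cell markers summed to 100 in GFP+ HSCs, 93 in GFP- HSCs and 318 in MPPs. Most of each of these sums was Cd4, at 98, 91 and 260, and Cd3e, Cd3g and Ncr1 were at 0 in both HSC libraries. The 6 erythroid markers summed to 715, 1018 and 395 in that order, with the haemoglobin genes Hbb-b1 and Hba-a1 at 0 throughout. The 6 markers of stroma and endothelium summed to 3103 in GFP+ HSCs, 2990 in GFP- HSCs and 4174 in MPPs, and most of each sum was Pecam1, which blood cells also express, at 2098, 2304 and 4053. The collagen genes among them went the other way, with Col1a1 at 294 in GFP+ HSCs, 22 in GFP- HSCs and 17 in MPPs and Col1a2 at 679, 457 and 28. Cxcl12 stood at 29, 187 and 66 in the same order, and Lepr and Cdh5 at 10 or less. The part of these cells in the values below was not tested.

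Of the 7 inhibitor genes, 5 were present, with an average level of 50 or more, and Cdkn2a and Cdkn2b were at or near 0 in every library. Cdkn1c was the 1 gene of the 5 that was highest in GFP+ HSCs, lower in GFP- HSCs and lowest in MPPs. Cdkn1a, Cdkn1b and Cdkn2c ran in the opposite order, and Cdkn2d was higher in both HSC fractions than in MPPs. The first of these orders was shared by 33.8% of the 11951 background genes and the second by 32.5%. Because each value comes from sorted cells in bulk, fewer cells with a transcript and less of it per cell cannot be told apart.

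**Figure D1:**
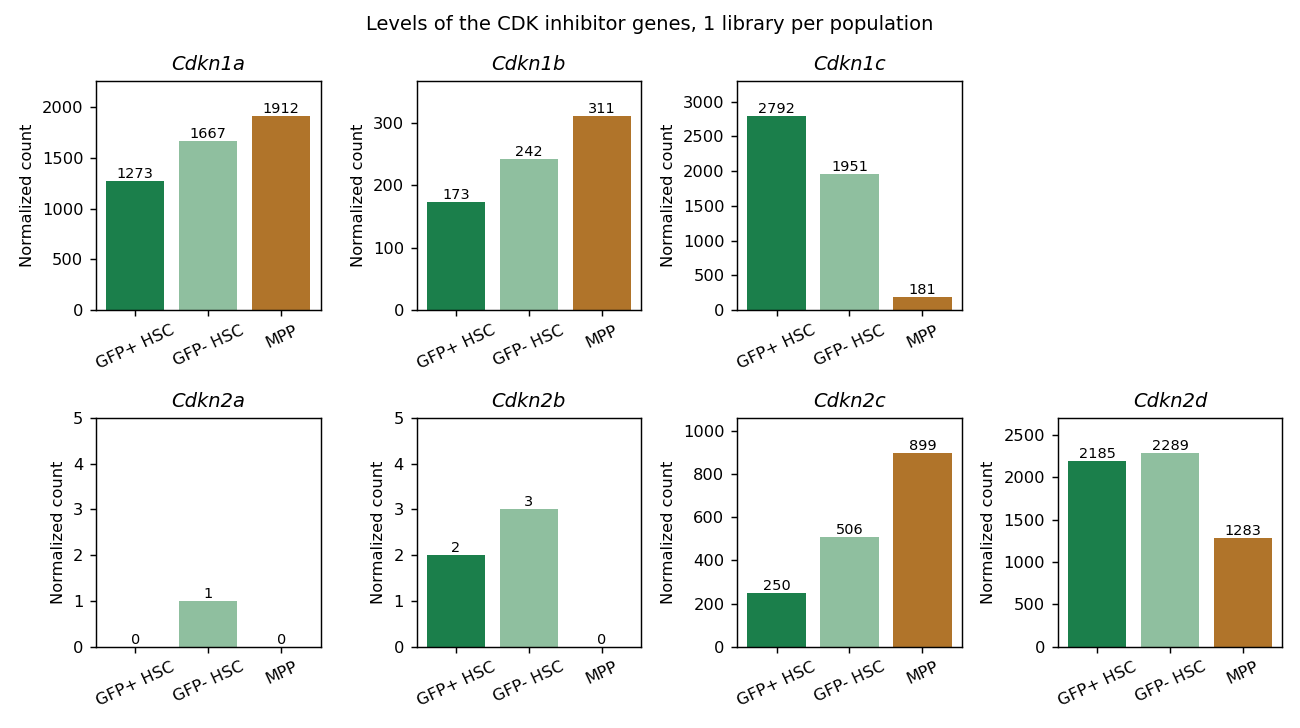
Level (normalized count, linear axes from 0, each panel with its own scale) of the 7 CDK inhibitor genes in GFP+ HSCs, GFP- HSCs and MPPs, with 1 library per bar and no error. Cdkn1c stands at 2792 in GFP+ HSCs against 181 in MPPs, Cdkn2c at 250 against 899, and Cdkn2a and Cdkn2b at 3 or less.

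Differences were taken as log2 ratios of the level plus 5, and a gene was counted where it was at least 2-fold apart on that scale. Between GFP+ and GFP- HSCs, 1 of the 5 present members was higher and 4 were lower in GFP+ HSCs, with a median log2 ratio of -0.39, beside 0.01 over all background genes. Cdkn2c alone passed the 2-fold rule, downwards, as 0.87% of the background did, and 0 members passed it upwards, beside 0.41%. Between GFP+ HSCs and MPPs, Cdkn1c passed the rule upwards and Cdkn2c downwards, where the background shares were 13.7% and 8.61%. Between GFP- HSCs and MPPs, Cdkn1c passed upwards, beside 11.6% of the background, and 0 members passed downwards, beside 5.53%. The member medians of these comparisons with MPPs were -0.58 for GFP+ HSCs and -0.20 for GFP- HSCs, beside 0.01 and -0.01 for all background genes. The 3 comparisons share libraries and are therefore not independent of each other.

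**Figure D2:**
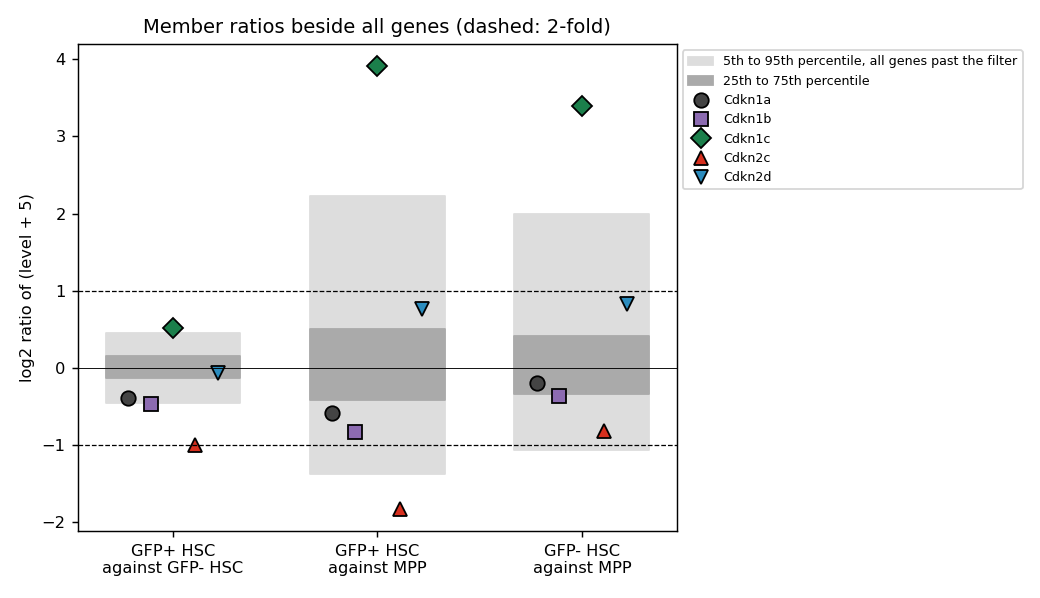
Log2 ratio of (level + 5) of the 5 members with an average level of 50 or more in each of the 3 comparisons (symbols), over the range of all 11951 background genes (grey boxes, percentiles named in the legend); dashed lines mark 2-fold. Cdkn1c lies above and Cdkn2c below the pale box, the range of the 5th to the 95th percentile, in GFP+ against GFP- HSCs and in GFP+ HSCs against MPPs, and Cdkn1b lies at its lower edge in the first of these.

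Among the Cip/Kip genes, Cdkn1a encodes p21, which p53 and many stress signals induce and which can arrest cells in G1. Cdkn1a (chromosome 17, 29090979 to 29100722, GRCm38) stood at 1273 in GFP+ HSCs, 1667 in GFP- HSCs and 1912 in MPPs. It was thus highest in MPPs and lowest in GFP+ HSCs, with log2 ratios of -0.39 for GFP+ against GFP- HSCs and -0.58 for GFP+ HSCs against MPPs. Between GFP- HSCs and MPPs the ratio was only -0.20. Of the background genes, 6.58% had a lower ratio between GFP+ and GFP- HSCs. In the comparisons with MPPs, 17.94% had a lower ratio for GFP+ HSCs and 34.93% for GFP- HSCs. The gene has a pair of annotated starts 2790 bases apart. The 250 bases upstream of the first are shown because they hold CATG, 6 bases of any kind and CATG again, the core pattern of the sites bound by p53, from 29090931 to 29090944, which is 2838 bases before the second start (sequence from RefSeq, GRCm38.p6; capitals mark the match).
Cdkn1a, first start, chr17:29090729-29090978, plus strand: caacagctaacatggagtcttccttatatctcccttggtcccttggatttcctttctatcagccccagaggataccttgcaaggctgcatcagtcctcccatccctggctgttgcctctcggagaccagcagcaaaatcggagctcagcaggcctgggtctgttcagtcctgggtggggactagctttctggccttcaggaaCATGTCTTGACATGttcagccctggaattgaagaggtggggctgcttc
Both strands were searched, and the pattern occurs in 0.49% of 32851 such windows of 27025 genes. No other window of the 6 members found in that set, all but Cdkn1c, held it. Among p53 and its other targets listed, 4 of 18 genes passed the 2-fold rule upwards and 1 downwards in GFP+ HSCs against MPPs, where 13.7% and 8.61% of the background did, with a median log2 ratio of 0.07 against 0.01 for all background genes. Fas, a death receptor gene, stood at 157 in GFP+ HSCs, 126 in GFP- HSCs and 16 in MPPs, and Eda2r, another receptor gene, at 90, 78 and 16. The other genes that passed upwards were Perp and Plk2, named here after their values were seen. Pmaip1, which encodes the death protein Noxa, went the other way, at 137, 181 and 1129. Between the HSC fractions the 1 such gene past 2-fold was Gdf15, at 118 in GFP+ and 299 in GFP- HSCs, also named after its value was seen. Of the background, 1.28% was 2-fold apart there. The listed targets thus had no common direction beside Cdkn1a, and Trp53 itself, named after its values were seen, stood at 5587 in GFP+ HSCs, 5977 in GFP- HSCs and 8004 in MPPs.

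Cdkn1b encodes p27, a brake on Cdk2 that is controlled largely through the stability of the protein and is known in mice to act mainly on progenitors. Cdkn1b (chromosome 6, 134920401 to 134925525) stood at 173 in GFP+ HSCs, 242 in GFP- HSCs and 311 in MPPs. Its log2 ratio was -0.47 between GFP+ and GFP- HSCs, where 4.69% of background genes lay lower, and -0.83 between GFP+ HSCs and MPPs, where 11.32% did. Between GFP- HSCs and MPPs the ratio was -0.36, and 23.93% of background genes lay lower. Per kilobase of its longest transcript the level was 38.0 in GFP+ HSCs, 53.2 in GFP- HSCs and 68.3 in MPPs, and in these libraries 7.7%, 11.5% and 17.8% of background genes lay lower. With the trend of the ratios on mean level removed, the comparison of GFP+ HSCs with MPPs reached -1.05 and so passed the 2-fold rule. Among 12 genes of the ubiquitin ligases known to act on Cip/Kip proteins, 11 were present, and 9 of them were lower in GFP+ than in GFP- HSCs with a median log2 ratio of -0.13. Of the 11951 background genes, 5714 were lower in that comparison, and the median over all was 0.01. In GFP+ HSCs against MPPs, 2 of the 11 passed the 2-fold rule downwards, beside 8.61% of the background. They were Cks1b, the cofactor by which Skp2 recognizes p27, at 901 in GFP+ HSCs, 1466 in GFP- HSCs and 3845 in MPPs, and Dtl, which directs p21 to degradation in S phase, at 3619, 5190 and 9250. Both of these are also genes of dividing cells. Skp2 itself, named after its values were seen, stood at 701 in GFP+ HSCs, 900 in GFP- HSCs and 1085 in MPPs.

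Cdkn1c encodes p57, the Cip/Kip member that is needed in mice to hold stem cells of the marrow in quiescence, and it is an imprinted gene expressed from the maternal copy. Cdkn1c (chromosome 7, 143458339 to 143461059) stood at 2792 in GFP+ HSCs, 1951 in GFP- HSCs and 181 in MPPs. Relative to MPPs it was therefore 15.4-fold higher in GFP+ HSCs and 10.8-fold higher in GFP- HSCs, with log2 ratios of 3.91 and 3.39. Only 1.68% and 1.84% of background genes had higher ratios in those comparisons. Between GFP+ and GFP- HSCs the level was 1.43-fold higher in GFP+ HSCs (log2 ratio 0.52), short of 2-fold, and 3.54% of background genes had a higher ratio. An annotated antisense gene, Gm44732, shares 625 exon bases with Cdkn1c, and an unnamed model shares 273 with Cdkn1a. The library chemistry does not mark the strand, so reads from both strands cannot be told apart there.

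The neighbours of Cdkn1c in the imprinted Kcnq1 domain were mostly higher in HSCs as well. Of 11 listed neighbours 8 were present, 7 of them higher in GFP+ than in GFP- HSCs with a median log2 ratio of 0.19. Of the 11951 background genes, 6183 were higher there, with a median of 0.01 over all. Of the 8 neighbours, 0 were 2-fold apart in that comparison, beside 1.28% of the background. In GFP+ HSCs against MPPs, 3 of the 8 passed the 2-fold rule upwards, where the median was 0.78 and 13.7% of the background passed upwards. Phlda2, another maternally expressed gene, stood at 264 in GFP+ HSCs, 239 in GFP- HSCs and 19 in MPPs, and the transporter gene Slc22a18 at 393, 341 and 156. Kcnq1ot1, the long non-coding RNA made from the paternal copy that silences the domain there, was the other of the 3, at 3976 in GFP+ HSCs, 3291 in GFP- HSCs and 1676 in MPPs, and is named after its values were seen. Osbpl5 was lower in GFP+ HSCs than in MPPs, at 696 against 1100, though it stood at 461 in GFP- HSCs. Genes known for expression from either parental copy were thus higher in the HSC fractions, though the copy of origin was not measured, and their ratios between GFP+ and GFP- HSCs were small (0.14 for Phlda2 and 0.27 for Kcnq1ot1).

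Among the Ink4 genes, Cdkn2a and Cdkn2b lie side by side on chromosome 4 and are known as genes that Polycomb silences in young stem cells. Cdkn2a (89274473 to 89294619) was listed at 0 in GFP+ HSCs, 1 in GFP- HSCs and 0 in MPPs, and Cdkn2b (89306289 to 89311032), which encodes p15, at 2, 3 and 0. These levels are near the bottom of the scale, so no ratio was taken, and a listed 0 need not mean that the transcript is absent. The 1 row of Cdkn2a covers both products of the locus, the kinase inhibitor p16 of 168 residues and the unrelated Arf protein of 169 residues, which stabilizes p53 rather than binding a kinase. They are made from starts 12427 bases apart, Arf from the upstream one, and the windows before both are shown because the 1 value stands for both. The 250 bases before each start were searched, and the 200 farthest upstream are printed. In the Arf window, capitals mark TTTCCCGC, a form of the site that E2F factors bind, found on either strand in 0.895% of windows, and the p16 window holds no match to it.
Cdkn2a, Arf start, chr4:89294670-89294869, minus strand: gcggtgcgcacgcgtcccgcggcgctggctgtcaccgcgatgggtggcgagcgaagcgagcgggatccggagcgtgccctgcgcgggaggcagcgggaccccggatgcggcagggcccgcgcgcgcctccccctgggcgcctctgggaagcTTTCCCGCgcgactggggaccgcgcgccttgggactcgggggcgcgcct
Cdkn2a, p16 start, chr4:89282243-89282442, minus strand: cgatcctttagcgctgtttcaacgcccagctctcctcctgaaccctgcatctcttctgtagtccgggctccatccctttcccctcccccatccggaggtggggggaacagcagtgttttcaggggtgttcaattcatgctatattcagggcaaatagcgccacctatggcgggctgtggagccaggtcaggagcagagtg
All 11 Polycomb genes listed as repressors of this locus were present in the 3 libraries. They had median log2 ratios of 0.11 between GFP+ and GFP- HSCs and 0.16 between GFP+ HSCs and MPPs. Cbx7, a chromobox subunit of Polycomb complex PRC1, stood at 2471 in GFP+ HSCs, 1735 in GFP- HSCs and 606 in MPPs. The histone methyltransferase genes went in opposite directions, with Ezh1 at 4054, 3255 and 1997 and Ezh2 at 1788, 2527 and 4947. Bmi1, known in mice to silence the locus in stem cells and named after its values were seen, stood at 2715 in GFP+ HSCs, 2278 in GFP- HSCs and 1739 in MPPs.

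Cdkn2c encodes p18, whose loss in mice increases stem cell self-renewal. Cdkn2c (chromosome 4, 109660876 to 109666756) stood at 250 in GFP+ HSCs, 506 in GFP- HSCs and 899 in MPPs. It was 2.02-fold lower in GFP+ than in GFP- HSCs, a log2 ratio of -1.003 that only just passed the 2-fold rule, and 97 of the 11951 background genes had a lower one. Against MPPs it was 3.60-fold lower in GFP+ HSCs (log2 ratio -1.83) and 1.78-fold lower in GFP- HSCs (-0.82), and 3.11% and 7.59% of background genes lay lower in those comparisons. The call between the HSC fractions was lost with a pseudocount of 20, at -0.96, and with the libraries rescaled to the same total, at -0.9995.

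Cdkn2d encodes p19Ink4d, a close relative of p18 that is known in mice to keep neurons out of division together with p27. Cdkn2d (chromosome 9, 21288459 to 21291421) stood at 2185 in GFP+ HSCs, 2289 in GFP- HSCs and 1283 in MPPs. The HSC fractions were nearly level, with a log2 ratio of -0.07, and both were higher than MPPs, by 1.70-fold in GFP+ HSCs (0.77) and 1.78-fold in GFP- HSCs (0.83). These ratios stayed short of 2-fold, and 17.75% and 14.0% of background genes had higher ones. Cdkn2c and Cdkn2d thus bind the same kinases but had opposite directions between HSCs and MPPs.

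Levels of different genes were compared per kilobase of the longest annotated transcript. On that scale the 7 genes summed to 3756.8 in GFP+ HSCs, 3697.5 in GFP- HSCs and 2348.2 in MPPs. In GFP+ HSCs, Cdkn2d gave 40.9% of the sum, Cdkn1c 39.1% and Cdkn1a 16.3%. In GFP- HSCs these shares were 43.5%, 27.8% and 21.7%. By coding length Cdkn2d led as well, with 41.7% in GFP+ HSCs and 40.4% in GFP- HSCs, against 25.4% and 16.4% from Cdkn1c. By median transcript length Cdkn1c led instead, with 58.0% against 24.0% from Cdkn2d in GFP+ HSCs and 44.7% against 27.7% in GFP- HSCs. The median transcript length of Cdkn1c, 667 bases, is however shorter than its coding sequence of 1044 bases, which raises its values on that scale. MPPs differed in make-up, with 39.1% from Cdkn1a, 38.4% from Cdkn2d, 15.5% from Cdkn2c and 4.1% from Cdkn1c. Cdkn2c gave 2.7% in GFP+ HSCs and 5.5% in GFP- HSCs, and Cdkn1b gave 1.0%, 1.4% and 2.9% in GFP+ HSCs, GFP- HSCs and MPPs. In MPPs, Cdkn1a and Cdkn2d were nearly level only by longest transcript. By coding length Cdkn1a gave 44.2% there against 28.4% from Cdkn2d, and by median transcript length 45.9% against 28.6%.

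The make-up of the Cip/Kip sum differed between the populations. Cdkn1c made up 69.3% of the Cip/Kip sum in GFP+ HSCs, 54.6% in GFP- HSCs and 8.8% in MPPs, and Cdkn1a made up 28.9%, 42.6% and 84.9%. By median transcript length, Cdkn1c gave 78.3% in GFP+ HSCs and 65.8% in GFP- HSCs. Per kilobase of coding sequence, Cdkn1c gave 47.5% and Cdkn1a 47.4% in GFP+ HSCs, and in GFP- HSCs Cdkn1a led with 60.5% against 32.4%. Which of the pair leads in GFP- HSCs therefore rests on the length used, and in GFP+ HSCs the pair were nearly level by coding length. For the share of each of the pair, the order of the 3 populations did not turn under the lengths tried. Cdkn2d made up 93.7% of the Ink4 sum in GFP+ HSCs, 88.5% in GFP- HSCs and 71.2% in MPPs.

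**Figure D3:**
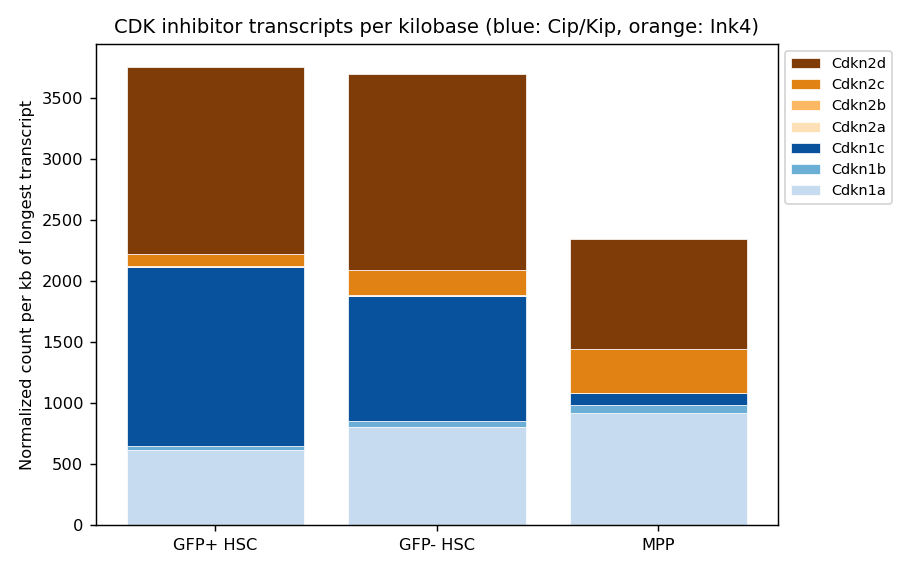
Normalized count per kilobase of the longest transcript for the 7 genes, stacked by library (blue shades for Cip/Kip, orange and brown for Ink4; 1 library per bar). The dark blue Cdkn1c block makes up 39.1% of the bar in GFP+ HSCs and 4.1% in MPPs, and the Cdkn2c block 2.7% and 15.5%.

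The kinases that these proteins bind were all lower in GFP+ HSCs. Cdk6, a target of the Ink4 proteins, stood at 1127 in GFP+ HSCs, 1993 in GFP- HSCs and 4197 in MPPs, and Cdk4 at 8481, 10027 and 17299. Cdk2, the main target of p21 and p27, stood at 3469, 4111 and 5248, and the mitotic kinase gene Cdk1 at 1135, 1994 and 4673. Of these 4 genes, 0 were 2-fold apart between the HSC fractions (median log2 ratio -0.53), beside 1.28% of the background. All but Cdk2 passed the 2-fold rule downwards in GFP+ HSCs against MPPs (median -1.46), as 8.61% of the background did. Cdk4 only just passed it, at a log2 ratio of -1.03.

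Cyclins divided by type. The D-type cyclins, which partner Cdk4 and Cdk6, were higher in GFP+ HSCs. Ccnd1 stood at 741 in GFP+ HSCs, 574 in GFP- HSCs and 311 in MPPs, Ccnd2 at 11512, 10218 and 8406, and Ccnd3 at 6893, 6562 and 4892. The cyclins of later phases were lower in GFP+ HSCs, each at least 2-fold against MPPs. Ccne1 stood at 276 in GFP+ HSCs, 404 in GFP- HSCs and 612 in MPPs, and Ccne2 at 613, 1070 and 1724. For Ccna2 the levels were 2849, 4725 and 10177 in the same order, for Ccnb1 598, 908 and 2315, and for Ccnb2 1321, 2142 and 5214. Ccna1, known from germ cells, was listed at 0, 1 and 0. Over the 8 cyclins present, the median log2 ratio was -0.57 between GFP+ and GFP- HSCs and -1.31 between GFP+ HSCs and MPPs, where 1 of the 8, Ccnd1, passed the 2-fold rule upwards and 5 passed it downwards, beside the same 13.7% and 8.61%.

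The Rb family, substrates of these kinases, was mixed, and 0 of its 3 genes were 2-fold apart in any comparison. Of the background, 1.28% passed between the HSC fractions, 22.3% in GFP+ HSCs against MPPs and 17.1% in GFP- HSCs against MPPs. Rbl2, which encodes the p130 protein of resting cells, stood at 6836 in GFP+ HSCs, 5877 in GFP- HSCs and 3905 in MPPs. Rbl1, which encodes p107 of cycling cells, stood at 2869, 3540 and 4675, and Rb1 at 1796, 1920 and 1588. Genes further down the pathway had a common direction. All 20 S phase genes under E2F and all 12 mitosis genes were lower in GFP+ than in GFP- HSCs. Their median log2 ratios were -0.51 and -0.68, and 0 of either were 2-fold apart, beside 1.28% of the background. Of the 11951 background genes, 5714 were lower there, with a median of 0.01 over all. Against MPPs, 15 of the 20 and 12 of the 12 passed the 2-fold rule downwards in GFP+ HSCs, beside 8.61% of the background. The proliferation marker Mki67 stood at 3990 in GFP+ HSCs, 6410 in GFP- HSCs and 10712 in MPPs, the replication gene Mcm10 at 747, 1338 and 2899, and Ube2c, a gene of the anaphase machinery, at 620, 1044 and 3942. Cdkn1a, Cdkn1b and Cdkn2c thus had the order of these genes over the populations and Cdkn1c the reverse order, and the share of cycling cells in each sort was not measured, so its part in the inhibitor levels was not tested.

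**Figure D4:**
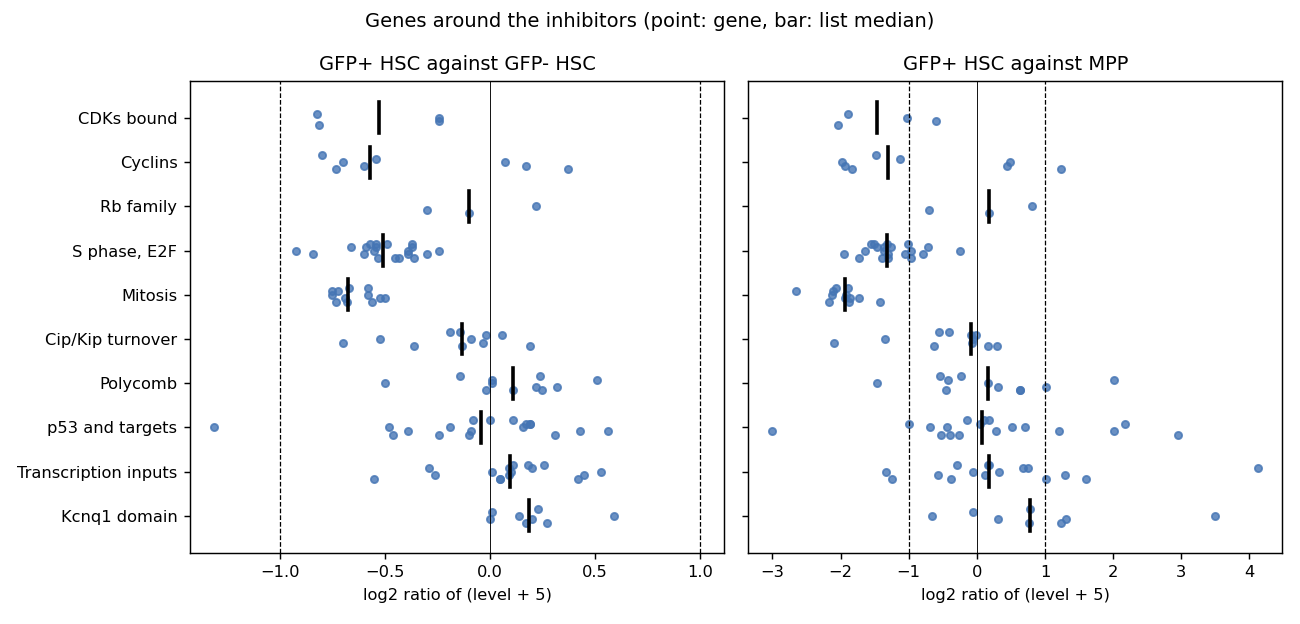
Log2 ratio of (level + 5) of each present gene (points) in 10 lists around the CDK inhibitors, with the list median as a black bar, for GFP+ against GFP- HSCs (left) and GFP+ HSCs against MPPs (right); dashed lines mark 2-fold. All points of the S phase and mitosis lists lie below 0 in both panels, with medians of -0.51 and -0.68 on the left, while the p53, Polycomb and transcription lists lie on both sides.

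Factors known to act on the transcription of CDK inhibitor genes were mixed. Of 17 listed 16 were present, with a median log2 ratio of 0.10 between GFP+ and GFP- HSCs and 0.17 between GFP+ HSCs and MPPs, where 4 passed the 2-fold rule upwards and 2 downwards, beside 13.7% and 8.61% of the background. The Notch target and repressor gene Hes1 stood at 3613 in GFP+ HSCs, 3403 in GFP- HSCs and 202 in MPPs. Foxo1, a factor that induces inhibitor genes when growth signals are low, stood at 2419, 1803 and 792. The other higher members were Mycn and Mll1 (now Kmt2a), named after their values were seen. Gfi1, a repressor that restrains stem cell division in mice, was lower in both HSC fractions than in MPPs, at 835 in GFP+ HSCs, 576 in GFP- HSCs and 2103 in MPPs. Tgfb1, the ligand gene of a pathway known to induce Cdkn1c and Cdkn2b, stood at 3029, 4426 and 7212.

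The genes most like each member were those nearest to it in a pair of log2 ratios over the 3 libraries, GFP+ against GFP- HSCs and GFP- HSCs against MPPs, among genes whose level averaged 200 or more. The pair shares the GFP- library, and 3 libraries allow few distinct patterns. Genes with names of predicted or unnamed models were left out, which gave 9770 candidates for each present member. Nearest to Cdkn1c were Amigo2, an adhesion gene, at a distance of 0.039, the growth factor gene Igf1 at 0.08 and the drug efflux transporter gene Abcb1a at 0.086. Abcb1a, for example, stood at 535 in GFP+ HSCs, 358 in GFP- HSCs and 28 in MPPs. In all 4 genes lay within 0.1 of Cdkn1c and 3 within 0.1 of Cdkn2c, whose nearest were Dnajc6, Kcna3 and Prpf19. The other members lay in denser parts of the plane, with 39 genes within 0.1 of Cdkn1a, 24 of Cdkn1b and 56 of Cdkn2d. Their nearest genes were Cstb, E2f7 and Arhgap39 for Cdkn1a, Psat1, Tssc1 and Nfatc2ip for Cdkn1b, and Gstm7, Rictor and Nbeal1 for Cdkn2d.

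**Figure D5:**
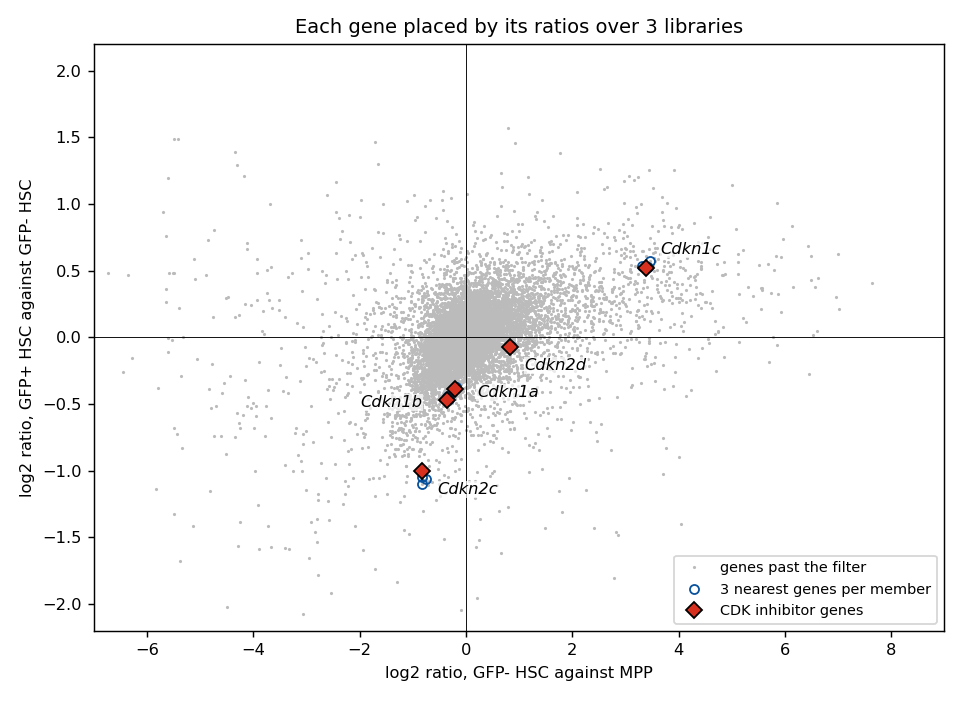
Each of the 11951 background genes (grey; 10 fall outside the axes) by its log2 ratio of GFP- HSCs against MPPs (horizontal) and of GFP+ against GFP- HSCs (vertical), with the 5 present CDK inhibitor genes (red) and the 3 nearest genes of each (blue rings, largely hidden under the symbols of Cdkn1a, Cdkn1b and Cdkn2d). Cdkn1c lies alone of the 5 at the upper right, at 3.39 and 0.52, and Cdkn2c at the lower left, at -0.82 and -1.003.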

How the data were processed

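RNA was measured in 3 sorted populations with 1 library each. Per the labels' protocols, RNA was isolated with TRIzol and a PicoPure kit, and SMART-seq v4 cDNA was made into low input libraries. The submitters' processing notes name STAR and DESeq2 as tools and mm10 as the genome build. In the sources used here, their versions, the annotation and the counter were not given. The authors deposited 1 table of normalized counts, rounded to whole numbers and treated here as a score, since the size factors and hence the depth are not given; no counting interval or limit of detection was computed. The columns neg and pos were read as the GFP- and GFP+ HSCs. Of 23420 rows, 27 with a date for a symbol were left out.

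Ratios were log2 of the level plus 5, which understates differences of low genes, and a fold given for 1 gene is the plain ratio of its levels. Genes with a mean of at least 50 formed the background (99.8% of the summed levels). No test was possible without replicates, so 2-fold was a rule of size. The calculation was tested on simulated data. Lengths came from GENCODE M21, found for 94% of background genes, and coordinates and promoter windows from RefSeq, GRCm38, the build also called mm10. The members and lists were chosen with earlier results of these data known. Named were all members, the kinases, cyclins and Rb family, and of each other list the 2 highest and 2 lowest ratios of GFP+ HSCs against MPPs, at most, and pathway genes outside this rule are marked as named after their values were seen. Cell type markers were named where they were at 0 or stood apart within a sum, also after their values were seen. For likeness, 3 genes per member were named. Promoter patterns were chosen after the levels were seen. Alternatives were pseudocounts of 1 and 20, rescaling to equal totals or equal upper quartiles, removal of the lowess trend on mean level, centring on the median, thresholds of 1.5-fold and 4-fold, minimum means of 10, 200 or none, and coding or median transcript length. Python 3.11.15, numpy 2.4.6, pandas 2.3.3, statsmodels 0.14.6 and matplotlib 3.10.9 were used.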

Additional observations from a re-analysis of the deposited data

How the results depend on the processing

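Over pseudocounts, scalings, trend removal and centring, 87 of 90 member ratios kept their direction and their side of 2-fold. The others were Cdkn2c in GFP+ against GFP- HSCs, at -0.96 with a pseudocount of 20 and -0.9995 after rescaling to the same total, and Cdkn1b in GFP+ HSCs against MPPs, at -1.05 with the trend on mean level removed. The count of members 2-fold apart between GFP+ and GFP- HSCs, 1 as reported, was 0 under that pseudocount, under that rescaling and at 4-fold. Between GFP+ HSCs and MPPs the count of 2 became 5 at 1.5-fold and 1 at 4-fold, and between GFP- HSCs and MPPs the count of 1 became 3 at 1.5-fold, as a looser or stricter threshold gives. Cdkn1a only just met 1.5-fold in GFP+ HSCs against MPPs, at a log2 ratio of -0.585. The share of background genes past 1.5-fold or 4-fold was not computed, so these counts have nothing to be set beside. The background share of GFP+ against GFP- HSCs, 1.28% in either direction, was 2.64% at a minimum mean of 10, 0.642% at 200 and 3.06% with none. Of 216 list medians, 203 moved by at most 0.1 and kept their sign. Pathway list genes 2-fold apart in GFP+ HSCs against MPPs numbered 58 as reported and 55 after rescaling to equal totals or equal upper quartiles. Under the other pseudocounts, trend removal and centring they numbered between 57 and 59. Counts in single lists can therefore move by genes close to the rule. The Ink4 share of the summed level per kilobase was 43.6% in GFP+ HSCs, 49.1% in GFP- HSCs and 53.9% in MPPs. It was 46.5%, 49.3% and 48.1% by coding length and 25.9%, 32.0% and 42.7% by median transcript length, so the balance of the families depends on the length. The sum over all 7 genes was higher in GFP- than in GFP+ HSCs by coding length, 10524.5 in GFP+ HSCs and 11383 in GFP- HSCs. No paired analysis was possible because each population had 1 library, and no library could be left out. The unknown depth limits Cdkn2a and Cdkn2b most, at levels of 3 or less.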

Other observations

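Genes that carry related names but encode other proteins were given no part above. Of 7 such genes present, 1 was 2-fold apart between GFP+ HSCs and MPPs, beside 22.3% of background genes in either direction. It was Cdkn3, a phosphatase gene of dividing cells despite its name, at 119 in GFP+ HSCs, 226 in GFP- HSCs and 622 in MPPs. Cdk2ap1 stood at 137, 134 and 231 in the same order. Cables1 and Cables2, which encode adaptors of CDKs, were slightly higher in HSCs, at 1081 in GFP+ HSCs, 1017 in GFP- HSCs and 786 in MPPs for Cables1 and at 2245, 2094 and 1619 for Cables2.

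Kinases and phosphatases that set CDK activity through phosphorylation form another layer of control. Of 8 such genes, 0 were 2-fold apart between the HSC fractions, beside 1.28% of the background, with a median log2 ratio of -0.07 against 0.01. In GFP+ HSCs against MPPs the median was -0.59, beside 0.01 over all background genes. There 2 of the 8 passed the 2-fold rule downwards, as 8.61% of the background did. They were Pkmyt1, an inhibitory kinase gene, at 1327 in GFP+ HSCs, 1869 in GFP- HSCs and 3556 in MPPs, and the activating phosphatase gene Cdc25c at 285, 371 and 917. Thus 1 inhibitory and 1 activating gene went the same way. The parts of the CDK-activating kinase were nearly level, with Cdk7 at 2060 in GFP+ HSCs, 1823 in GFP- HSCs and 1951 in MPPs and Mnat1 at 915, 920 and 1010.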
